A study of Mus musculus with 4 samples.

Results

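Transcripts of 10 circadian clock genes were examined in liver and duodenum of mice with and without an active aryl hydrocarbon receptor (AhR) transgene. The genes were Arntl, Clock, Npas2, Per1, Per2, Per3, Cry1, Cry2, Dbp and Ciart. They were taken as a named list, and all 23 probe sets that the array's annotation assigns to them were used, among 18194 genes in all. AhR is a transcription factor that ligands such as dioxins activate, and the transgenic mice carry CA-AhR, a form that is active without ligand. The groups were liver and duodenum of each genotype, each read once on an Affymetrix Mouse Genome 430 2.0 array. Every array held RNA pooled from 3 female mice that were 5 to 6 weeks old and had free access to standard chow and water. The strain, the promoter that drives the transgene, and the time of day at which tissue was taken could not be found in the labels or design text. Each group is 1 pool, so no value below has an error or a test, and genotype cannot be told apart from collection time, feeding state or any other property of a pool.

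The clock is a transcriptional feedback loop that runs in most cells. ARNTL, also called BMAL1, pairs with CLOCK or NPAS2 and binds E-box sequences, and the genes that it drives include the Per, Cry, Ciart, Dbp and Nr1d genes. The PER, CRY and CIART proteins inhibit ARNTL-containing pairs, and the REV-ERB receptors encoded by Nr1d1 and Nr1d2 repress Arntl, so in mouse liver Arntl runs roughly opposite in phase to Dbp, Ciart and Nr1d1. DBP carries the rhythm onward through D-box sequences, to genes of metabolism and to the Per genes themselves. ARNTL, CLOCK, NPAS2 and the PER proteins contain PAS domains, as AhR does. In liver and gut the phase of the loop follows feeding time.

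The start regions of the 5 genes at 1.5-fold or more in transgenic liver are shown so that their matches to motifs of this loop and of AhR can be read beside the values. Each window is the 250 bases before a RefSeq start in build GRCm38.p6, 5′ to 3′ on the gene's own strand. Capitals mark exact matches on either strand to the E-box CACGTG, the REV-ERB and ROR core motif AGGTCA, the AhR site core GCGTG or the D-box TTATGTAA. No match in the windows printed overlaps another. Windows of 9 of the 10 genes were found, and Per2 had no entry.
Ciart, chr3:95882229-95882478, minus strand: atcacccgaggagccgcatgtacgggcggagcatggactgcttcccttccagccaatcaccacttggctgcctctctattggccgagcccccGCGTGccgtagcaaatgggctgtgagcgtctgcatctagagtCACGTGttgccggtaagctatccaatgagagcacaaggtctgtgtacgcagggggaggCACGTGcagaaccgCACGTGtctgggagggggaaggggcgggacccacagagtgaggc
Dbp, chr7:45704997-45705246, plus strand: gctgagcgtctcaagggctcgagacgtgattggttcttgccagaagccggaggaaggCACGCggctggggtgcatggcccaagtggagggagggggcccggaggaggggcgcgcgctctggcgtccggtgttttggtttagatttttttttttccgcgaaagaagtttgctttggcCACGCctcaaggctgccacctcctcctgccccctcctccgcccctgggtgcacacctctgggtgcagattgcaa
Per3, chr4:151044666-151044915, minus strand: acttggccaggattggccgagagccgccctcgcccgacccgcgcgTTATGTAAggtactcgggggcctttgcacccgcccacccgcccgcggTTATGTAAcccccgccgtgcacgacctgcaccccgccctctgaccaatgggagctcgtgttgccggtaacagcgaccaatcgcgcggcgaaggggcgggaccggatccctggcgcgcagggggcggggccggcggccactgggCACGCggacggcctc
Cry1, chr10:85185055-85185304, minus strand: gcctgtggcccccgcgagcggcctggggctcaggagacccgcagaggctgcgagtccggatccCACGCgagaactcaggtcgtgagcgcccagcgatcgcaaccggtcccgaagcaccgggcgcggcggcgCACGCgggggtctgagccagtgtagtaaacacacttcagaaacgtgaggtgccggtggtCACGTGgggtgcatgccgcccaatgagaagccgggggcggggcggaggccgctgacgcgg
Arntl, chr7:113207215-113207464, plus strand: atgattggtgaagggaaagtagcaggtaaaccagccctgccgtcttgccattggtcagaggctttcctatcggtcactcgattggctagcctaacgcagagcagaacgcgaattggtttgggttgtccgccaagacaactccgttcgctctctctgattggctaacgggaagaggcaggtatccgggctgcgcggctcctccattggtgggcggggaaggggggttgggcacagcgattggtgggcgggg

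The Ciart window holds 3 E-boxes, at 116 to 111, 58 to 53 and 44 to 39 bases before the start, and 1 AhR site core. An E-box of this exact form occurs in 6.02% of 32851 windows of the same length, and 3 or more occur in 20 of them, or 0.0609%. The Per3 window holds 2 D-boxes, at 205 to 198 and 158 to 151 bases before the start, against 0.819% of windows with any and 0.0183% with 2 or more. Per3 also has 1 AhR site core. Cry1 has 1 E-box at 60 to 55 bases before the start and 2 AhR site cores. Dbp has 2 AhR site cores and no other match, and the AhR site core is present in 28.2% of all windows. The Arntl window has no match, and the REV-ERB and ROR core motif is present in 14.0% of all windows. Among the members not printed, 1 of the Per1 windows holds 1 E-box. At least 1 window each of Clock, Npas2, Per1 and Cry2 holds an AhR site core. The REV-ERB and ROR core motif is present in 1 Clock window and 1 Per1 window. A match describes these letters and is no measure of binding, which these data do not contain.

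**Figure D1:**
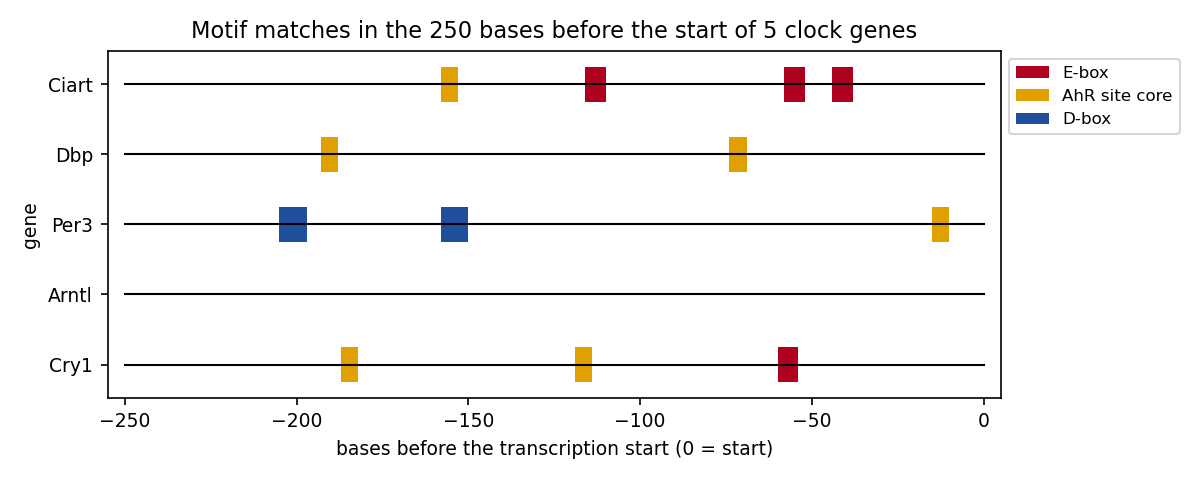
Position of motif matches in the windows of Ciart, Dbp, Per3, Arntl and Cry1, in bases before the transcription start, with 1 line per gene and 1 colour per motif. Ciart has 3 E-boxes, Per3 has 2 D-boxes, and the Arntl line is empty.

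Signals are MAS5 values on a linear scale, with a trimmed mean of 500.0 on every array and median signals between 167.7 and 229.3. Signals under a floor of 129.3 were raised to it before a ratio was taken, and where that left 1 side of a ratio at the floor, the fold is a bound ("at least"). Cyp1a1, the classic AhR target, was 33.9-fold higher in transgenic liver and 9.86-fold higher in transgenic duodenum, the direction that the labels give. All 10 hepatocyte markers were above the floor on both liver arrays and all 8 enterocyte markers on both duodenum arrays. The transgenic duodenum array stood apart: all 8 exocrine pancreas markers were 2-fold or more higher there, from a summed signal of 1833 to 84764. Of the 6 measured markers of Brunner gland and stomach, 5 were also higher on that array, and the Gapdh 3′/5′ ratio was 3.07 against at most 1.03 on the other 3 arrays. In transgenic liver, 7 of 8 fibroblast and stellate cell markers were 2-fold or more higher, with a summed signal of 24180.7 against 7708.6, and 3 of 7 measured enterocyte markers were higher. Goblet and Paneth cell markers were also higher in transgenic liver, 3 of 4 measured, with a summed signal of 10425.9 against 2422.6. None of the 10 hepatocyte markers reached 2-fold there, with a summed signal of 459859 against 602681. In pooled tissue, fewer cells of a type and less RNA per cell cannot be told apart, and the part of these shifts in the clock gene values was not tested.

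**Figure D2:**
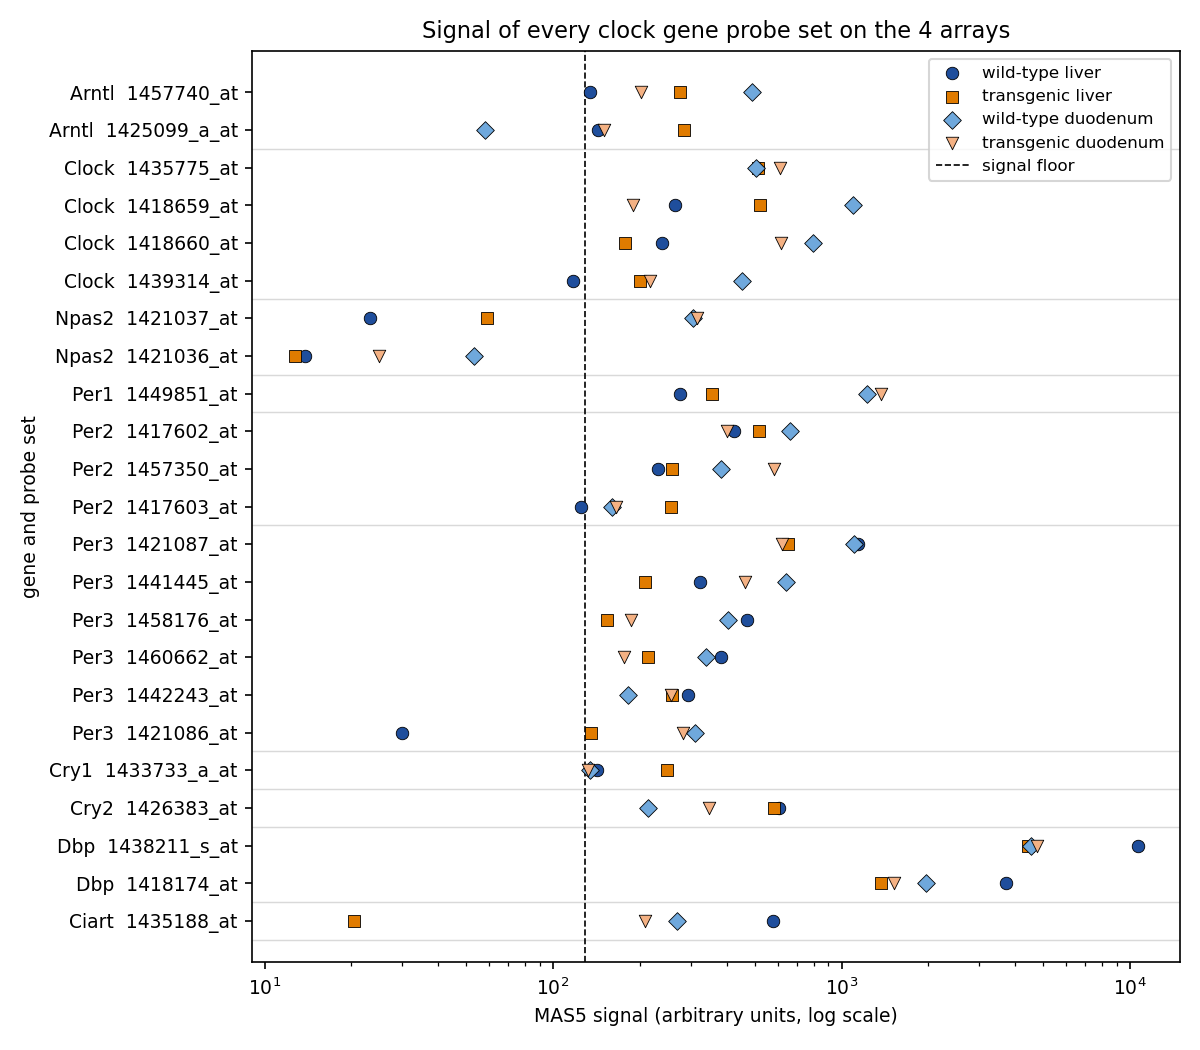
MAS5 signal of all 23 clock gene probe sets on the 4 arrays, on a log axis in arbitrary units, with 1 symbol per array and the floor of 129.3 as a dashed line. For both Dbp probe sets the wild-type liver point lies to the right of the other 3, and for Ciart the transgenic liver point, at 20.4, lies far below the floor.

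In liver the output and feedback genes Ciart and Dbp were lower in the transgenic pool and the driver gene Arntl was higher. Of 9 clock genes measured there, 1 was higher by 2-fold or more, 2 were lower by that much, and 6 lay between. Over all 13952 genes measured, 4.72% were higher and 3.60% were lower at that fold. At 1.5-fold, 2 clock genes were higher and 3 were lower, against 13.5% and 12.1% of all genes. The median log2 ratio of the 9 genes was 0.00 and that of all genes was 0.01, so the list had no common direction.

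Ciart, also called Chrono, encodes an inhibitor of ARNTL-containing pairs. Its only probe set read 578.3 and 20.4 in wild-type and transgenic liver, and 269.5 and 207.6 in the corresponding duodenum arrays. Transgenic liver was the lone array below the floor, and wild-type liver was the highest. The liver fold was at least 4.47 lower, a log2 ratio of -2.16 at most.

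Dbp encodes a PAR bZIP activator whose transcript has one of the steepest daily rhythms in liver. Probe set 1438211_s_at read 10626.3 and 4427.8 in wild-type and transgenic liver, and 4546.0 and 4776.3 in the corresponding duodenum arrays. Wild-type liver stood above the other 3 arrays, which lay close together. Probe set 1418174_at read 3730.4, 1374.4, 1963.3 and 1521.6 on the same arrays, again with wild-type liver highest. The transgenic liver signal was 2.40-fold lower by the first and 2.71-fold lower by the other. Among 6175 probe sets with a mean liver signal of 1000 or more, 2.20% were 2-fold or more lower.

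**Figure D3:**
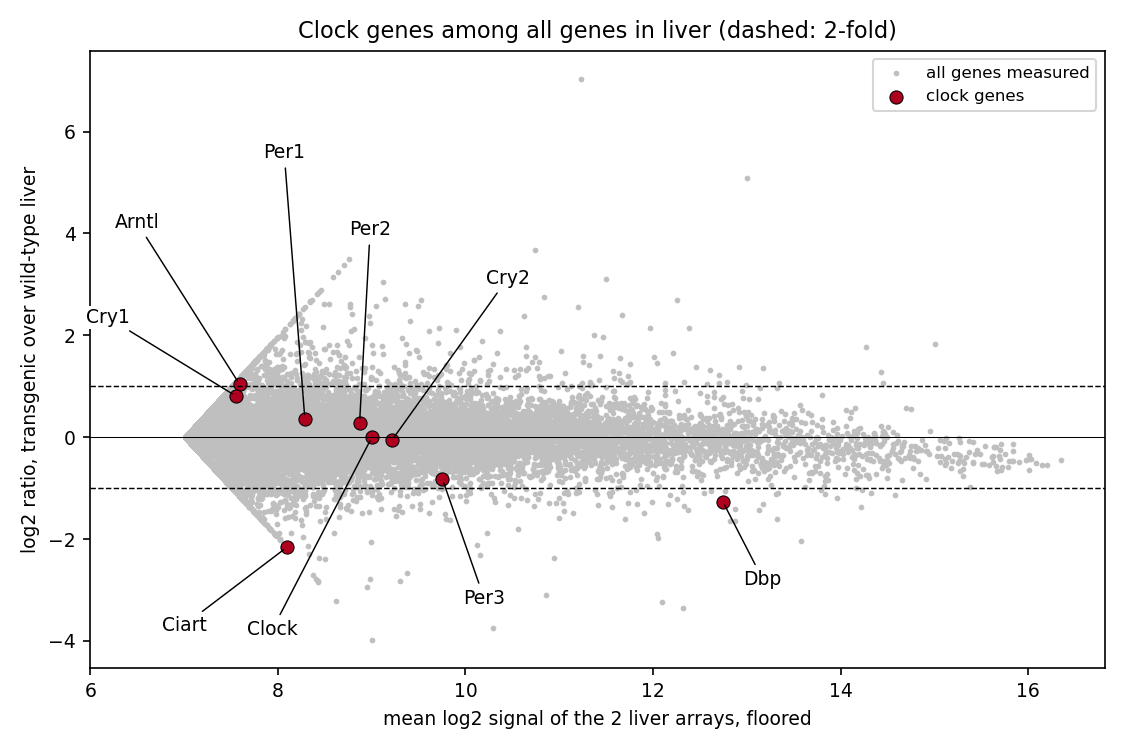
Log2 ratio of transgenic over wild-type liver against the mean log2 signal of both liver arrays for every measured gene, with the 9 measured clock genes in red and dashed lines at 2-fold. Dbp lies below the lower line among bright genes at -1.26, Ciart at -2.16 is a bound, and Arntl at 1.04 lies in the wide band of dim genes.

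Among the Per genes, which encode the repressors that partner CRY proteins, Per3 was lower in transgenic liver and Per1 and Per2 were not. The brightest Per3 probe set, 1421087_at, read 1144.7 and 650.0 in wild-type and transgenic liver, and 1103.7 and 623.9 in the corresponding duodenum arrays. Both transgenic arrays lay below both wild-type arrays, by 1.76-fold in liver and 1.77-fold in duodenum. Of the 6 Per3 probe sets, 5 gave a log2 ratio below 0 in liver. The lowest of these, 1458176_at, read 471.7 in wild-type and 153.8 in transgenic liver, a 3.07-fold difference, and 404.6 and 186.9 in duodenum, a 2.16-fold difference. The sixth, 1421086_at, read 30.0 in wild-type and 135.5 in transgenic liver, so its ratio rests on the floor. Per1 read 275.2 in wild-type and 354.3 in transgenic liver, a log2 ratio of 0.36. Per2 read 424.4 and 516.2 on its brightest probe set, a log2 ratio of 0.28, and all 3 of its probe sets were above 0 in liver.

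Arntl, the gene of the obligate partner in the activating pair, had 2 probe sets that gave the same liver ratio and different duodenum ratios. Probe set 1457740_at read 134.6 and 276.2 in wild-type and transgenic liver, and 490.5 and 201.8 in the corresponding duodenum arrays. Probe set 1425099_a_at read 143.0, 283.6, 58.3 and 150.4 on the same arrays. Transgenic liver was higher than wild-type liver by 2.05-fold on the first and 1.98-fold on the other. Both wild-type liver signals lay just above the floor, and with a floor of 266.3, the 60th percentile, the Arntl log2 ratio was 0.05.

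Clock, which encodes the partner of ARNTL, read 512.5 and 513.4 on the 2 liver arrays by its brightest probe set, a log2 ratio of 0.00. Its other probe sets did not give the same ratio in liver: 1418659_at read 265.2 and 521.0, while 1418660_at read 238.3 and 178.1. Npas2, which can replace CLOCK in the pair, was below the floor in both livers on both of its probe sets, at 23.1 and 58.8 on the brighter one, and was not compared there. Cry1, which encodes a strong repressor of the loop, read 141.7 in wild-type and 248.2 in transgenic liver, 1.75-fold higher. Cry2, its paralog, read 606.8 and 582.2, a log2 ratio of -0.06.

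The wider network in liver was described from lists of known genes. Over all genes, 4.72% were higher and 3.60% were lower at 2-fold, and 13.5% and 12.1% at 1.5-fold. Of 4 measured genes of the nuclear receptor and Nfil3 loop, 0 were higher and 1 was lower at 2-fold. That gene was Nr1d1, encoding REV-ERB alpha, at 758.3 in wild-type and 345.1 in transgenic liver, 2.20-fold lower. Its paralog Nr1d2 read 5512.2 and 4499.1. Of 8 other clock bHLH and PAR bZIP factors, 0 were higher and 1 was lower at 2-fold, but 4 were higher and 1 was lower at 1.5-fold, with a median log2 ratio of 0.26. The 4 were Tipin at 0.96, Bhlhe41 at 0.91, Timeless at 0.90 and, as a bound, Arntl2 at 0.66. In wild-type liver Bhlhe41 read 144.2 and Timeless 144.9, near the floor, and Arntl2 read 110.3, below it. With the 60th-percentile floor Timeless was at 0.02. Bhlhe40, encoding the repressor DEC1, read 3100.4 and 1352.4, 2.29-fold lower. By the brightest probe set of each, the 15 kinases, ligases and cofactors of clock proteins had 0 higher and 0 lower at 2-fold. The counts at 1.5-fold were the same. Some dimmer probe sets of this list differed by more, in both directions. A dimmer Csnk1d probe set read 610.5 in wild-type and 184.5 in transgenic liver, 3.31-fold lower. Dimmer probe sets of Nono, Gsk3b and Csnk1e were 1.79-fold lower, 1.87-fold higher and 1.69-fold higher.

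Rhythmic output genes of liver lay lower as a list. Of 14 measured, 0 were higher and 3 were lower at 2-fold, and 1 was higher and 7 were lower at 1.5-fold, with a median log2 ratio of -0.59 against 0.01 for all genes. The shares over all genes were 4.72% higher and 3.60% lower at 2-fold, and 13.5% and 12.1% at 1.5-fold. Rgs16, a regulator of G protein signalling, read 489.2 and 62.7, at least 3.78-fold lower. Klf10, a zinc finger factor, read 1046.1 and 357.5, 2.93-fold lower. Wee1, a kinase that restrains mitosis, read 1624.4 and 808.9 on its brightest probe set, 2.01-fold lower. Its other probe set read 334.8 and 336.4, and the mean Wee1 log2 ratio over probe sets was -0.50. The median log2 ratio of the spiked hybridization controls in liver was -0.68. Scaling to those controls shifts all liver ratios above the floor upward by about that size, those of the list and of other genes alike. On that scale Wee1 was at -0.32, Klf10 at -0.87, Dbp at -0.58, Nr1d1 at -0.45, Bhlhe40 at -0.52 and Per3 at -0.13. On that scale Nr1d2 turned from -0.29 to 0.39.

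**Figure D4:**
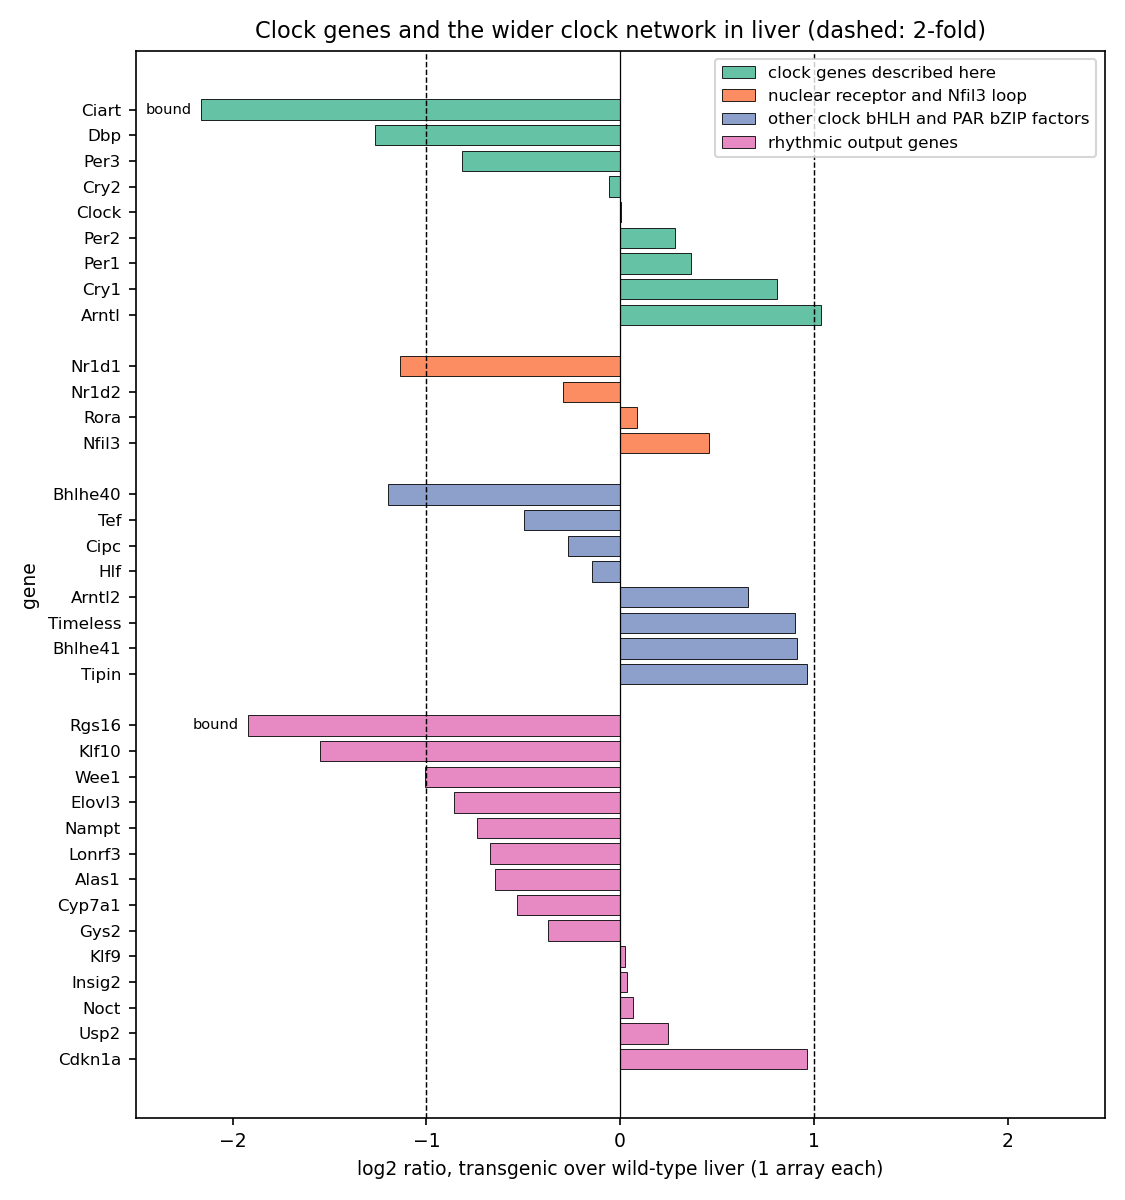
Log2 ratio of transgenic over wild-type liver, 1 array each, for the measured clock genes and 3 lists of the wider network, with 1 bar per gene and dashed lines at 2-fold. Bars for Ciart and Rgs16 are bounds, since transgenic liver was below the floor. The Arntl2 bar is also a bound, since wild-type liver was below it, and 9 of the 14 output genes lie to the left of 0.

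Genes were also listed by their known phase in mouse liver, with some clock genes in both kinds of list. List counts at 2-fold here stand against 4.72% of all genes higher and 3.60% lower in liver. Of 4 measured genes in phase with Arntl, 1 was higher and 0 were lower at 2-fold, with a median log2 ratio of 0.63 against 0.01 for all genes. The 1 higher gene was Arntl itself, which this median includes. In wild-type liver Arntl and Cry1 of this list read 134.6 and 141.7, near the floor. Of 11 that run opposite to Arntl, 0 were higher and 3 were lower, with a median of -0.29. The 3 were Ciart, Dbp and Nr1d1, already described. Genes that respond to other states of the animal were listed too. Of 12 glucocorticoid and fasting genes, 2 were higher and 1 was lower: Igfbp1, a fasting-induced binding protein, was 2.96-fold higher, Sgk1, a glucocorticoid-induced kinase, was 2.55-fold higher, and Angptl4, a lipase inhibitor, was 2.44-fold lower. Of 10 immediate early genes, 1 was higher and 1 was lower: Fos was at least 2.45-fold higher and Nr4a1 was 2.09-fold lower. Of 7 temperature-responsive genes, 1 was higher, the heat shock gene Hspa1b at 2.20-fold, and 0 were lower, with 1 log2 ratio below 0 and a median of 0.56. The part of feeding, stress or collection time in the clock gene values was not tested.

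Over all genes in liver, 4.72% were higher and 3.60% were lower at 2-fold. Among PAS-domain genes outside the clock, 1 of 12 measured there was higher and 0 were lower, by the brightest probe set of each. It was Ahrr, the AhR repressor gene, at 8.4 in wild-type and 1456.0 in transgenic liver, at least 11.3-fold higher. Ahr had a log2 ratio of 0.17 on its brightest probe set, but the other read 324.1 and 860.0, 2.65-fold higher. A dimmer Hif3a probe set was at least 2.51-fold higher, and a dimmer Ncoa1 probe set was at least 3.91-fold lower. For comparison, all 5 AhR target genes listed were 2-fold or more higher in liver, with a median log2 ratio of 2.75.

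In duodenum the clock genes gave another set of values. Of 10 measured, 0 were 2-fold or more higher and 1 was lower in the transgenic pool, against 8.74% and 11.1% of 14721 genes. The median log2 ratio was 0.01, with -0.11 for all genes. The 1 lower gene was Arntl, 2.43-fold lower on probe set 1457740_at, from 490.5 to 201.8. Its other probe set went from 58.3, below the floor, to 150.4, a floored log2 ratio of 0.22, so the duodenum direction of Arntl depends on the probe set. Clock read 505.1 and 611.5 on its brightest probe set, 1435775_at, but its other 3 probe sets were below 0. Of these, 1418659_at read 1098.4 and 188.7, 5.82-fold lower, and 1439314_at read 452.7 and 216.1, 2.09-fold lower. The third, 1418660_at, read 797.2 and 618.2, and the mean log2 ratio over Clock probe sets was -0.92.

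Dbp and Ciart, the genes furthest below wild type in liver, were near their wild-type values in duodenum, with log2 ratios of 0.07 and -0.38. Per3 was 1.77-fold lower, close to its liver value. Per2 read 660.6 and 399.7 on its brightest probe set, 1.65-fold lower, but 383.3 and 583.4 on probe set 1457350_at, 1.52-fold higher. Cry2 read 212.9 and 348.3, 1.64-fold higher. Per1 at 1229.3 and 1370.5, Npas2 at 305.9 and 315.0 and Cry1 at 134.6 and 132.0 differed by 1.11-fold, 1.03-fold and 1.02-fold. The pancreas markers and the Gapdh ratio of the transgenic array apply to each of these values, and their part was not tested.

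**Figure D5:**
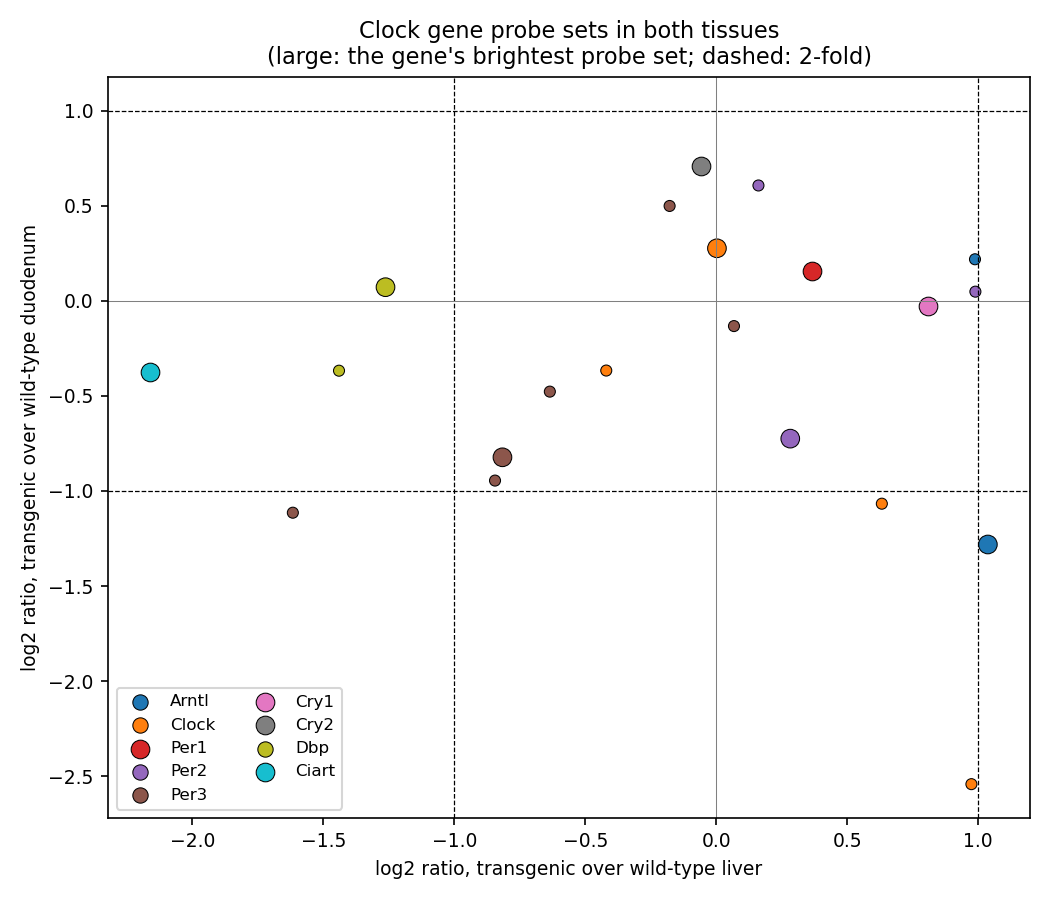
Log2 ratio of transgenic over wild type in duodenum against that in liver for each clock gene probe set measured in both tissues, coloured by gene, with large points for the brightest probe set of a gene and dashed lines at 2-fold. Most Per3 points lie in the lower left, and 1 lies above 0 on the duodenum axis. Dbp and Ciart lie at the left near 0 on the duodenum axis. The large Arntl point is at 1.04 in liver and -1.28 in duodenum.

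In the wider duodenum network, list counts stand against 8.74% of all genes higher and 11.1% lower at 2-fold. Nr1d1 read 613.4 and 1224.7, a log2 ratio of 1.00 just under 2-fold, and Nr1d2 read 5033.9 and 2045.8, 2.46-fold lower. Of 8 other bHLH and PAR bZIP factors, 3 were lower and 0 were higher: Arntl2, a paralog of Arntl, by 2.99-fold, and Timeless and Tipin, a pair of replication fork proteins, by 2.61-fold and 2.56-fold. The other Timeless probe set read 173.2 and 229.8, in the opposite direction. Of 15 kinases and cofactors, 1 was lower, the AMP-activated kinase subunit gene Prkaa2 at 2.71-fold on its brightest probe set. The mean Prkaa2 log2 ratio over probe sets was -0.77. Some dimmer probe sets of this list were also lower, such as those of Csnk1d by 4.73-fold and Gsk3b by 3.29-fold. The brightest probe sets of Csnk1d and Gsk3b were 1.49-fold and 1.65-fold higher. Of 14 output genes, Ppard and Cdkn1a were higher, by 2.56-fold and 2.20-fold, and Elovl3 was lower, by at least 2.46-fold. Of 11 other PAS-domain genes 1 was lower, Ahr itself, at 2123.3 in wild-type and 590.2 in transgenic duodenum. Of 10 glucocorticoid and fasting genes 3 were higher: Fkbp5, a glucocorticoid-induced chaperone, by 2.39-fold, Angptl4 by 2.04-fold and Tsc22d3, encoding GILZ, by 3.79-fold. Another Fkbp5 probe set read 868.9 and 486.6, in the opposite direction, and the mean Fkbp5 log2 ratio over probe sets was 0.21. Without probe sets for several transcripts, the Tsc22d3 log2 ratio turned from 1.92 to -1.33. Of 10 immediate early genes 0 were higher and 0 were lower, and of 7 temperature-responsive genes 1 was higher, Hspa1b at 2.16-fold, or a log2 ratio of -0.14 without such probe sets. Of the 5 AhR target genes, 4 were higher.

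Between the wild-type tissues, 3 clock genes were 2-fold or more higher in liver and 3 were lower, against 13.6% and 18.5% of 14919 genes. Higher in liver were Cry2 by 2.85-fold, Dbp by 2.34-fold and Ciart by 2.15-fold. Lower in liver were Per1 by 4.47-fold, Arntl by 3.64-fold on its brightest probe set, and Npas2 by at least 2.37-fold. The other Arntl probe set went the opposite way, at 143.0 in wild-type liver and 58.3, below the floor, in wild-type duodenum. The mean log2 ratio over Arntl probe sets was -0.86. Cry1 and Per3 had log2 ratios of 0.07 and 0.05 on their brightest probe sets. Clock was at 0.02 on its brightest probe set, but its other 3 were lower in liver, at -2.05, -1.74 and, as a bound, -1.81, and the mean over probe sets was -1.39. Dbp and Ciart were therefore higher in wild-type liver than in wild-type duodenum, Dbp by 1.90-fold on its other probe set. In transgenic liver Dbp read 4427.8 on its brightest probe set, near both duodenum values. The other Dbp probe set read 1374.4 there, below 1963.3 and 1521.6 in wild-type and transgenic duodenum. Ciart read 20.4 there, below 269.5 and 207.6 in wild-type and transgenic duodenum.

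Genes with the pattern most like Arntl and Dbp were taken by the Euclidean distance between centred, floored log2 signals over the 4 arrays, among 15676 genes. For Arntl they were Sinhcaf at a distance of 0.09, Ppp1r16b, Wdr31, Trmt1l and Ereg. In wild-type liver Ppp1r16b, Wdr31 and Ereg were below the floor, at 127.5, 37.5 and 113.1. Sinhcaf read 274.1, 591.3, 966.6 and 425.1 on the wild-type and transgenic liver and the wild-type and transgenic duodenum arrays. Arntl2, a paralog of Arntl, was 40th nearest at 0.39. For Dbp they were Cpne6 at 0.06, Chrnb3, BC037704, Trim13 and Dcaf6. Of these 5 only Dcaf6 was above the floor on all 4 arrays, at 1262.2, 561.2, 543.1 and 598.5. Bhlhe40 was 12th for Dbp, at 0.12, reading 3100.4, 1352.4, 1372.5 and 1561.8. With 4 arrays many genes share such a pattern, and the distances are a description.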

How the data were processed

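Liver and duodenum RNA of wild-type and CA-AhR mice was read on 4 arrays, 1 per group, from pools of 3 mice. Per the labels, Trizol was used for RNA and biotin for cRNA. The authors deposited linear intensity values for each probe set; MAS5 is named in the submitters' processing notes, without a version. The platform annotation gave a single gene symbol for 34958 of 45101 probe sets, several for 932 and none for 9211. RefSeq's gene table (GRCm38.p6) was used to update symbols and for nothing else.

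Log2 ratios were taken without further normalization, above a floor of 129.3, the mean over arrays of the 40th percentile of probe sets other than the 64 controls. A gene with both signals under the floor got no ratio. A gene was represented by its probe set of highest mean log2 signal, and called at 2-fold. Probe sets ending in _a_at, _s_at or _x_at can detect related transcripts. Spiked controls were 18 probe sets. The scripts were tested on simulated data.

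The members and lists were chosen with earlier results of these data known. Named were all members, the list members at 2-fold or more (at most 3 furthest each way), and the 5 genes closest to Arntl and to Dbp; paralogs, Bhlhe40 and list genes given beside them were chosen after their values were seen. Of 181 symbols in the lists, 170 had a value, and the rest are not analysed here. Alternatives were another floor or none, the mean over probe sets, leaving out probe sets for several transcripts, quantile and lowess normalization, the spiked control scale and a 1.5-fold call. Promoter windows come from RefSeq, GRCm38.p6. Python 3.11.15, pandas 2.3.3, numpy 2.4.6, statsmodels 0.14.6 and matplotlib 3.10.9 were used.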

Additional observations from a re-analysis of the deposited data

Results flagged for a closer look

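Arntl had opposite ratios in the 2 tissues on its brightest probe set: the transgenic pool was at a log2 ratio of 1.04 in liver and -1.28 in duodenum. With 1 array per group the difference between tissues was not tested. The other Arntl probe set gave 0.99 in liver and 0.22 in duodenum, where wild-type duodenum lay below the floor.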

How the results depend on the processing

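For the clock genes in liver, the count of 2-fold higher genes (1) was 2 with no floor, 0 with the 60th-percentile floor, 3 on the spiked control scale and 2 at 1.5-fold. The count of lower genes (2) was 1 on the spiked control scale, where the median log2 ratio (0.00) was 0.68. In duodenum the higher count (0) was 1 after quantile normalization, 1 after lowess normalization and 1 at 1.5-fold. The lower count there (1) was 0 with the 60th-percentile floor, 0 with the mean over probe sets, 0 after quantile and 0 after lowess normalization, and 3 at 1.5-fold. Between wild-type tissues the lower count (3) was 1 with the 60th-percentile floor. Another 54 values of this kind kept within 1.5 times the main count or near the main median. Of 197 ratios of single clock genes, 13 fell short of the 2-fold line and 4 passed it in the same direction. A change of sign was seen in 14, and 1 of these also passed the line. That was Clock between wild-type tissues, from 0.02 to -1.39 with the mean over probe sets. None of the 14 was at 2-fold in the main setting, where the largest was 0.38 in size (Ciart in duodenum, from -0.38 to 0.06 after lowess); they include Clock in duodenum, from 0.28 to -0.92 with the mean over probe sets, Dbp in duodenum, from 0.07 to -0.37 without probe sets for several transcripts, and Cry2 in liver, from -0.06 to 0.62 on the spiked control scale. Over all alternatives Arntl ranged from 0.05 to 1.72 in liver, Dbp from -1.44 to -0.58, and Ciart from -4.83 to -1.12. Why these values moved was not tested. The number of arrays limits every value, and the wild-type liver signals of Arntl and Cry1 lay near the floor. No paired analysis was possible because each group is 1 array.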

Other observations

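Nr1d1 and Nr1d2, which encode REV-ERB alpha and beta, differed in opposite ways in duodenum. Nr1d1 read 613.4 in wild-type and 1224.7 in transgenic duodenum, while Nr1d2 read 5033.9 and 2045.8. In liver both were lower in the transgenic pool, at 758.3 and 345.1 for Nr1d1 and at 5512.2 and 4499.1 for Nr1d2, although Nr1d2 was higher there on the spiked control scale.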
